A study of Homo sapiens with 2 samples.

Results

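The enzymes that write N6-methyladenosine (m6A) into messenger RNA were followed through 9 genes: METTL3, METTL14, METTL16, WTAP, VIRMA, ZC3H13, RBM15, RBM15B and CBLL1. They were chosen by name, and every transcript of these genes was taken by its identifier, which gave 66 of the 206696 transcripts listed and 9 of 59026 genes. The measurements came from rRNA-depleted total RNA of HEK293 Flp-In T-Rex cells, a derivative of the human embryonic kidney line HEK293 that carries a single site for inserting a transgene under tetracycline control. The labels named no treatment, so there was 1 group of 2 libraries, replicate 1 and replicate 2. Whether these came from separate cultures was not stated, and their spread may be technical. With 2 libraries, a two-sided sign-flip test cannot give a p-value below 0.5, so values are given per library, as means ± SD, and beside the share of all genes behaving alike.

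m6A is the most common internal base modification of eukaryotic mRNA, and it is bound by reader proteins that influence splicing, export, translation and decay. Most of it is laid down in the nucleus by a METTL3-METTL14 heterodimer, in which METTL3 carries out catalysis with S-adenosylmethionine as methyl donor and METTL14 holds the structure and helps to bind RNA. WTAP, VIRMA, ZC3H13, RBM15, RBM15B and CBLL1 associate with this core and direct it to its targets, whereas METTL16 acts apart from it, on U6 snRNA and on hairpins of the MAT2A mRNA.

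The 3 methyltransferase-fold proteins of the group differ at a short motif of their active-site region, which is shown here because the transcripts of these genes were later sorted by whether they contain it. The motif is DPPW in METTL3, at residues 395 to 398 of 580, where it contributes to catalysis. The matching position in METTL14, which is not known to be catalytic, reads EPPL, at residues 192 to 195 of 456. METTL16 carries NPPF at residues 184 to 187 of 562. The genomic sequences (GRCh38, coding strand, 5′ to 3′) come from chr14:21500596-21500625 on the minus strand for METTL3, chr4:118697243-118697272 on the plus strand for METTL14 and chr17:2467776-2467805 on the minus strand for METTL16, each inside a coding exon, and capitals mark the 4 codons of the motif.
METTL3: gtgatggctGACCCACCCTGGgatattcac
METTL14: attcttctgGAACCCCCTTTAgaagaatat
METTL16: tgcatgtgcAACCCTCCCTTTtttgccaat
Proteins were translated from the MANE Select transcripts, the models agreed between Ensembl and RefSeq for each gene. They were aligned globally, with no penalty for gaps at the ends. METTL3 and METTL14 were identical at 31.8% of 343 aligned residues and METTL3 and METTL16 at 24.6% of 378. The paralogues RBM15 and RBM15B were identical at 52.7% of 826.

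The libraries held 25158962 and 27143860 estimated counts, of which 96.9% and 96.8% lay on transcripts that matched GENCODE v44. Of the genes that the HEK293 line is known to express, VIM, KRT8, KRT18 and NEFL had means of 1473 to 15885 normalised counts (estimated counts divided by 1 size factor per library), while NEFM and PAX2 had 16.6 and 42.0. PTPRC, ALB, CD3E, INS and MYH7, markers of other cell types, were at 0 in both libraries. GFAP and COL1A1, also markers of other cell types, had means of 70.8 and 223 normalised counts.

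All 9 writer genes were detected in both libraries. Their estimated counts summed to 17084.5 and 17924.7 in replicates 1 and 2, which is 679 and 660 per 1000000 counts. The METTL3-METTL14 core took 12.9% and 12.5% of these counts, METTL16 took 11.0% and 10.6%, and the 6 associated proteins took 76.0% and 76.9%. To compare genes with each other, each transcript's estimated count was divided by its length and the results scaled to sum to 1000000 per library, and this value, summed over a gene, is called its level per length. On this scale the METTL3-METTL14 core had 48.7 of the writers' 212.4 in replicate 1 and 44.96 of 193.0 in replicate 2, and so a larger part than by counts. The core's level lay mostly on transcripts not annotated as protein-coding. Protein-coding transcripts held a mean of 35.4% of the METTL3 level and 46.3% of the METTL14 level, against 69.3% over all 9 genes. By level per length the 9 genes lay above 76.4 to 92.4% of the expressed genes.

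Among the catalytic genes, METTL3 (ENSG00000165819, chr14:21498133-21511342, minus strand) had 1734 normalised counts in replicate 1 and 1609 in replicate 2. Its level per length was 35.5 and 33.6, 34.6 ± 1.31 (SD, n = 2), which was the smallest SD in the group. METTL14 (ENSG00000145388, chr4:118685392-118715433, plus strand) had 604 and 471 normalised counts and a level per length of 13.2 and 11.3, 12.3 ± 1.35. METTL14 was thus below METTL3 in both libraries, and its means were the lowest of the 9 genes by counts and per length. METTL16 (ENSG00000127804, chr17:2405562-2511891, minus strand) had 1997 and 1763 normalised counts and lay between them at a level of 19.6 and 16.1, 17.9 ± 2.45.

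WTAP (ENSG00000146457, chr6:159725585-159756319, plus strand), the adaptor that holds the heterodimer in nuclear speckles, had 2421 and 2132 normalised counts and a level of 40.0 and 34.4, 37.2 ± 3.97. VIRMA (ENSG00000164944, chr8:94487689-94553529, minus strand), a large scaffold, had 2164 and 1714 normalised counts and a level of 25.6 and 18.7, 22.1 ± 4.87. ZC3H13 (ENSG00000123200, chr13:45954465-46052759, minus strand), which helps to keep the complex in the nucleus, had 2363 and 1856 normalised counts and a level of 15.1 and 12.2, 13.6 ± 2.05. Each of these genes was lower in replicate 2, and the spread of VIRMA was the widest of the 9.

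RBM15 (ENSG00000162775, chr1:110338506-110346681, plus strand), an RNA-binding protein that recruits the complex to transcripts, had 3322 and 3706 normalised counts and a level of 36.1 and 41.1, 38.6 ± 3.49. Its paralogue RBM15B (ENSG00000259956, chr3:51391285-51397908, plus strand) had 2268 and 2572 normalised counts and a level of 12.4 and 14.3, 13.3 ± 1.35. RBM15 was above RBM15B in both libraries. CBLL1 (ENSG00000105879, chr7:107743073-107761667, plus strand), also called HAKAI, a RING-type E3 ubiquitin ligase, had 1203 and 799 normalised counts and a level of 14.9 and 11.3, 13.1 ± 2.51.

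Ordered by mean level per length, the genes ran RBM15, WTAP, METTL3, VIRMA, METTL16, ZC3H13, RBM15B, CBLL1 and METTL14. A pair of genes was called different where its order was shared by both libraries and its means lay further apart than the SDs of the pair added together. This held for 24 of the 36 pairs. Among neighbours in this order it held only for METTL3 and VIRMA. Over all transcripts, RBM15, WTAP and METTL3 formed an upper set whose members did not differ beyond their spread, and the other 6 a lower set. METTL3 left the upper set when only protein-coding transcripts were used, with a mean level of 12.3 against 32.4 for WTAP and 13.3 for RBM15B. There the means of 5 of the 24 pairs were reversed, 2 of them beyond the spread. Within the lower set over all transcripts, VIRMA was above ZC3H13, RBM15B, CBLL1 and METTL14 beyond the spread, and METTL16 was above RBM15B and METTL14. With protein-coding transcripts only, VIRMA (9.60) and METTL16 (8.65) were instead below RBM15B (13.3) beyond the spread. The mean of VIRMA was there also below those of ZC3H13 (9.77) and CBLL1 (10.2), while VIRMA and METTL16 stayed above METTL14 (5.62). Over all transcripts, the libraries gave opposite orders for RBM15 and WTAP, ZC3H13 and RBM15B, RBM15B and CBLL1, CBLL1 and METTL14, and RBM15B and METTL14.

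**Figure D1:**
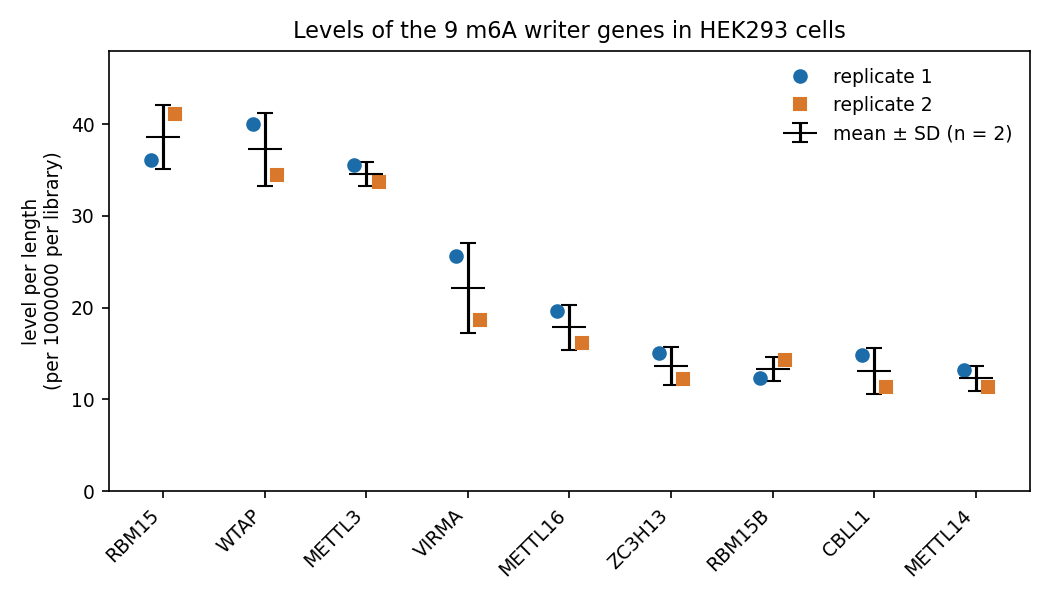
Level per length of the 9 writer genes (vertical axis, per 1000000 per library), ordered by mean. Circles are replicate 1, squares replicate 2, and bars the mean ± SD of the 2 libraries. RBM15, WTAP and METTL3 lie between 33.6 and 41.1, and the other 6 genes at or below 25.6.

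The ratio of the core subunits depended on which transcripts were counted. METTL14 lay below METTL3 on level per length, by log2 ratios of -1.42 and -1.57 in the libraries (-1.50 ± 0.10, or 0.354-fold). The METTL14 level rested largely on short transcript models. METTL14-201, the 6642-nt model of the full protein, had a level of only 1.85, whereas METTL14-202 of 432 nt, METTL14-205 of 522 nt and METTL14-203 of 927 nt supplied most of the remainder. When gene totals were divided by the length of the MANE Select transcript, the log2 ratio was -3.39 ± 0.18. With protein-coding transcripts only it was -1.13 ± 0.24, and among protein-coding models annotated as complete it was -2.74 ± 0.24. METTL14 was below METTL3 in each of these calculations, but the size of the difference moved with the transcript models used.

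METTL3, VIRMA and METTL16 also moved when the models were restricted, and so, by less, did WTAP, ZC3H13 and CBLL1. METTL3 had a mean level of 34.6 over all transcripts and 12.2 over complete protein-coding models. VIRMA went from 22.1 to 9.60 and METTL16 from 17.9 to 8.65 in the same way. WTAP went from 37.2 to 32.4, ZC3H13 from 13.6 to 9.36 and CBLL1 from 13.1 to 9.34. RBM15 and RBM15B, whose transcripts were all protein-coding, stayed at 38.6 and 13.3, so that RBM15B moved from the seventh to the third place.

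**Figure D2:**
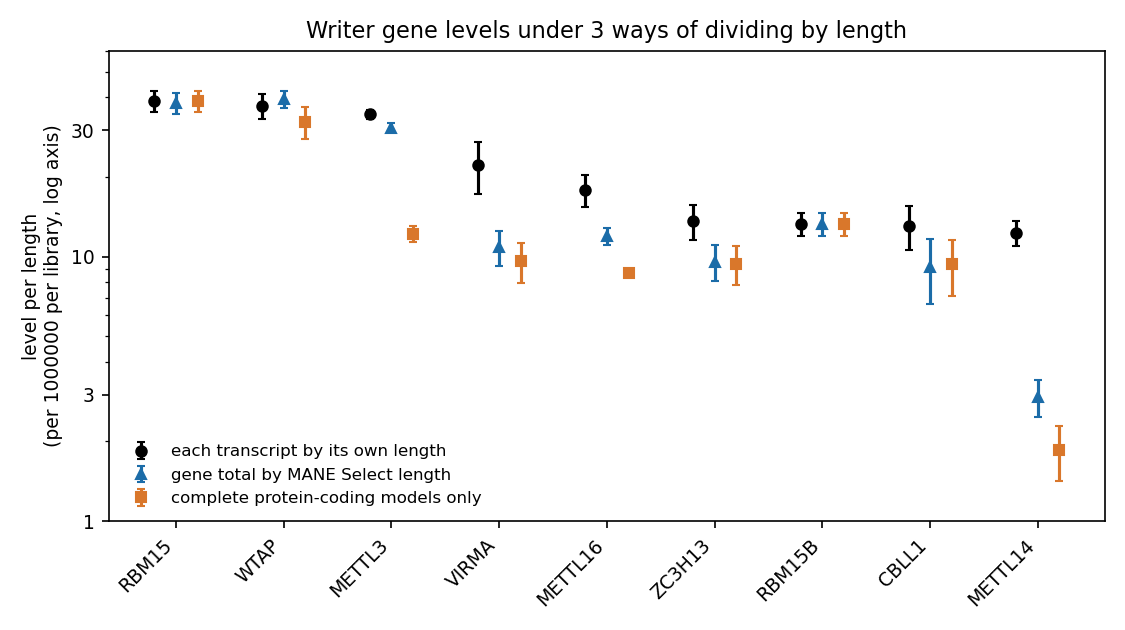
Mean level per length (log axis) of the 9 genes with each transcript divided by its own length (circles), with the gene total divided by the MANE Select length (triangles), and over complete protein-coding models only (squares). Bars are the SD of 2 libraries. METTL14 has means of 12.3, 2.94 and 1.85 in these calculations, while RBM15 has 38.6, 37.9 and 38.6.

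Protein-coding transcripts carried 85.0% of the writer counts in replicate 1 and 85.3% in replicate 2, 85.1 ± 0.25% (SD, n = 2). By counts the share was lowest in METTL3. Its protein-coding transcripts held 40.6% of its counts in replicate 1 (95% Clopper-Pearson interval 38.2 to 43.1) and 38.8% in replicate 2 (36.4 to 41.1), 39.7 ± 1.31%. By counts it was the only writer gene with a share under 50%, which was also true of 11.0% of 13955 protein-coding genes averaging 10 or more normalised counts, and 7.99% of these genes had a share lower than that of METTL3. The intervals cover counting error only.

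Most of the rest of METTL3 lay on transcripts annotated for nonsense-mediated decay, the pathway that degrades mRNAs with premature stop codons, and on transcripts with a retained intron. Decay-annotated transcripts held 37.1% in replicate 1 and 28.5% in replicate 2, and retained-intron transcripts held 21.3% and 31.1%. Transcripts with no defined coding sequence held 1.04% and 1.64%. By counts the protein-coding class was the largest in both libraries, while the decay-annotated and retained-intron classes exchanged their order. By level per length, decay-annotated transcripts were above protein-coding ones in replicate 1, at 38.8% against 36.5%.

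In METTL16 the protein-coding share was 70.0% and 75.5%, in VIRMA 76.1% and 75.03%, in METTL14 79.2% and 81.8%, and in WTAP 87.0% and 81.9%. CBLL1 had 95.9% and 94.8%, ZC3H13 had 96.6% and 95.6%, and RBM15 and RBM15B had 100% in both libraries, there being no other kind of transcript of these genes in the tables. Without METTL3 the protein-coding share of the remaining genes was 90.0%. By level per length in place of counts the share of all 9 genes was 69.3 ± 1.58%, and METTL3 was then not alone under 50%. Its share was 35.4 ± 1.48%, and VIRMA had 43.6 ± 2.15%, METTL14 46.3 ± 8.98% and METTL16 48.8 ± 5.69%.

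**Figure D3:**
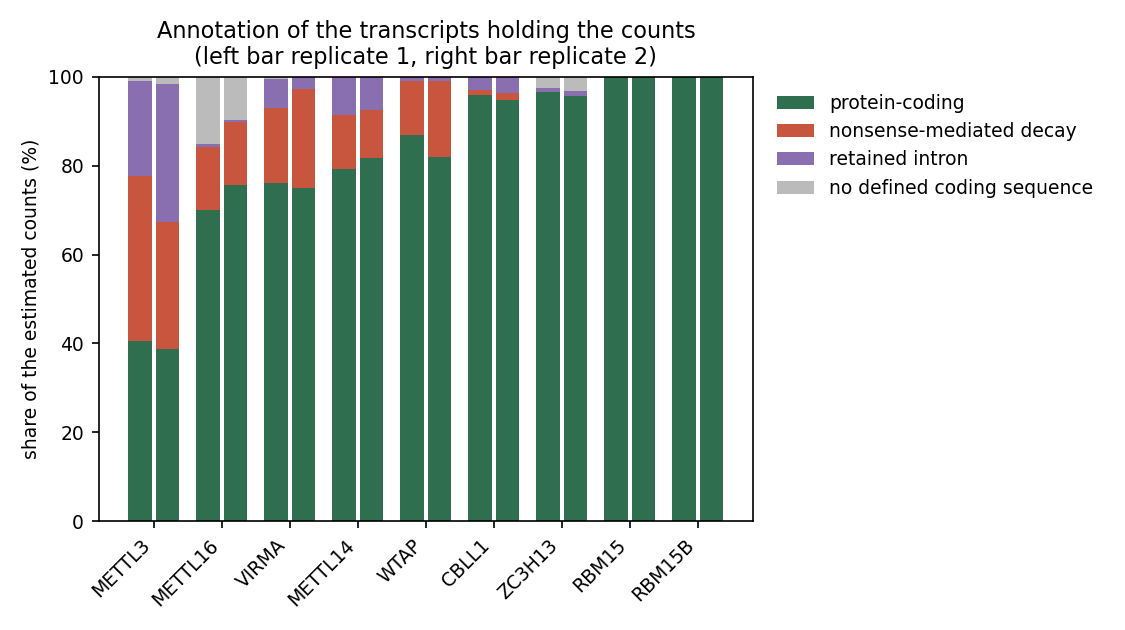
Share of each gene's estimated counts (vertical axis, percent) on transcripts of 4 annotation classes, with replicate 1 as the left bar and replicate 2 as the right bar of each gene. METTL3 has the lowest protein-coding shares, 40.6 and 38.8%, and RBM15 and RBM15B have 100%.

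Each gene had the same leading transcript by counts in both libraries, 9 of 9, although RBM15B has only 1 transcript. Of 14529 genes with several transcripts and an average of 10 or more normalised counts, 81.4% did so as well, and 85.9% of those within the range of the writers' counts, so the writers were close to the background. By level per length it held for 8 of 9 genes, again with RBM15B among them, against 74.0% of the genes with several transcripts. The exception was METTL14, led by METTL14-202 in replicate 1 and METTL14-203 in replicate 2. The leader was the MANE Select transcript in 7 genes. RBM15 was led by another transcript, and the MANE Select transcript of ZC3H13 was not among the transcripts analysed here.

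METTL3-201, which encodes the full 580 residues in 11 exons, held 40.5% of METTL3 in replicate 1 and 38.8% in replicate 2. The decay-annotated METTL3-208 held 20.5% and 11.8%, and the retained-intron transcript METTL3-212 held 10.5% and 19.3%. These transcripts thus exchanged their order between the libraries, from 355 and 182 normalised counts in replicate 1 to 189 and 310 in replicate 2, while the leader kept its share. The 4 codons of the DPPW motif shown above were contained in 5 of the 14 METTL3 transcripts, which held 67.5% and 74.8% of the counts, but only METTL3-201 had them within its annotated reading frame.

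METTL14-201 held 65.9% and 59.1% of METTL14, and METTL14-203 held 13.3% and 21.6%. The 136-residue model of METTL14-203 is annotated without its start, and its end is not that of the full protein. The EPPL codons were in 4 of 6 transcripts with 91.5% and 91.9% of the counts, and lay in the reading frame of 2 of them with 79.2% and 80.8%. METTL16-201 held 70.0% and 75.5% of METTL16, and the decay-annotated METTL16-208 held 9.57% and 13.4%. Its NPPF codons were in 3 of 10 transcripts with 82.7% and 82.8% of the counts. In the reading frame they were found on 70.0% and 75.5%.

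WTAP had the lowest share of counts on its leading transcript, with WTAP-206 at 35.96% and 35.4%, WTAP-202 at 23.7% and 23.9%, WTAP-201 at 24.2% and 19.8%, and the decay-annotated WTAP-208 at 12.2% and 17.3%. WTAP-206 and WTAP-202 encode the same 396 residues, and together they held 59.6% and 59.3%. WTAP-201 encodes 151 residues, of which the first 150 are those of the long protein. A 170-residue form with the same first 150 residues was encoded by WTAP-207 and WTAP-205, which were picked out after their values had been seen because each was listed above 0 in 1 library only. Neither has a 50-base word that the other transcripts of WTAP lack, so the division of reads between them rests on the counting model. WTAP-207 had 76.0 normalised counts in replicate 1 and 0 in replicate 2, whereas WTAP-205 had 0 and 57.8. Summed over both transcripts, the 170-residue form held 3.14% and 2.71% of WTAP, 2.92 ± 0.30%. The last coding bases of the 3 forms are printed 5′ to 3′ (GRCh38, chromosome 6, plus strand, last coding base at 159755608, 159748370 and 159748647), with the stop codon in capitals, because the reading frames part before these ends.
WTAP 396 residues: agtgtaaatgtacagggttcagttttgTAA
WTAP 151 residues: agtgcctggaagtttacgcctgataggTAA
WTAP 170 residues: gtggccacctccgaaaaattccccttcTAG

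VIRMA-201, which encodes 1812 residues, held 55.7% and 57.0% of VIRMA. VIRMA-202, with 1147 residues of which the first 1131 are those of the long form, held 20.4% and 18.0%, and the decay-annotated VIRMA-207 held 13.02% and 17.4%. ZC3H13-201, with 1668 residues, held 86.6% and 90.0% of ZC3H13. CBLL1-205, with 491 residues, held 91.1% and 84.5% of CBLL1. The order of the 3 named VIRMA transcripts was the same in both libraries.

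RBM15 was led by RBM15-204 with 58.9% and 57.0%, followed by the single-exon RBM15-203 with 32.9% and 30.8%. The MANE Select transcript RBM15-201, which encodes 977 residues, held 5.19% and 4.66%. RBM15-204 encodes 933 residues that are the same as the end of this protein and lacks its first residues, and RBM15-203 encodes 957 residues of which the first 955 are shared. RBM15-202, with 969 residues, differed 2.80-fold, with 98.7 normalised counts in replicate 1 against 277 for replicate 2. The coding ends (GRCh38, chromosome 1, plus strand, last coding base at 110345606, 110342276 and 110346351) are printed because the forms differ there, 5′ to 3′ with the stop codon in capitals.
RBM15-204 and RBM15-201: agagaaaacttggcgctgaccctgttaTAG
RBM15-203: gtcatgatcattgtccgtggtgcgtccTAA
RBM15-202: cggatgaagatatggaattcaaagctcTAA

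**Figure D4:**
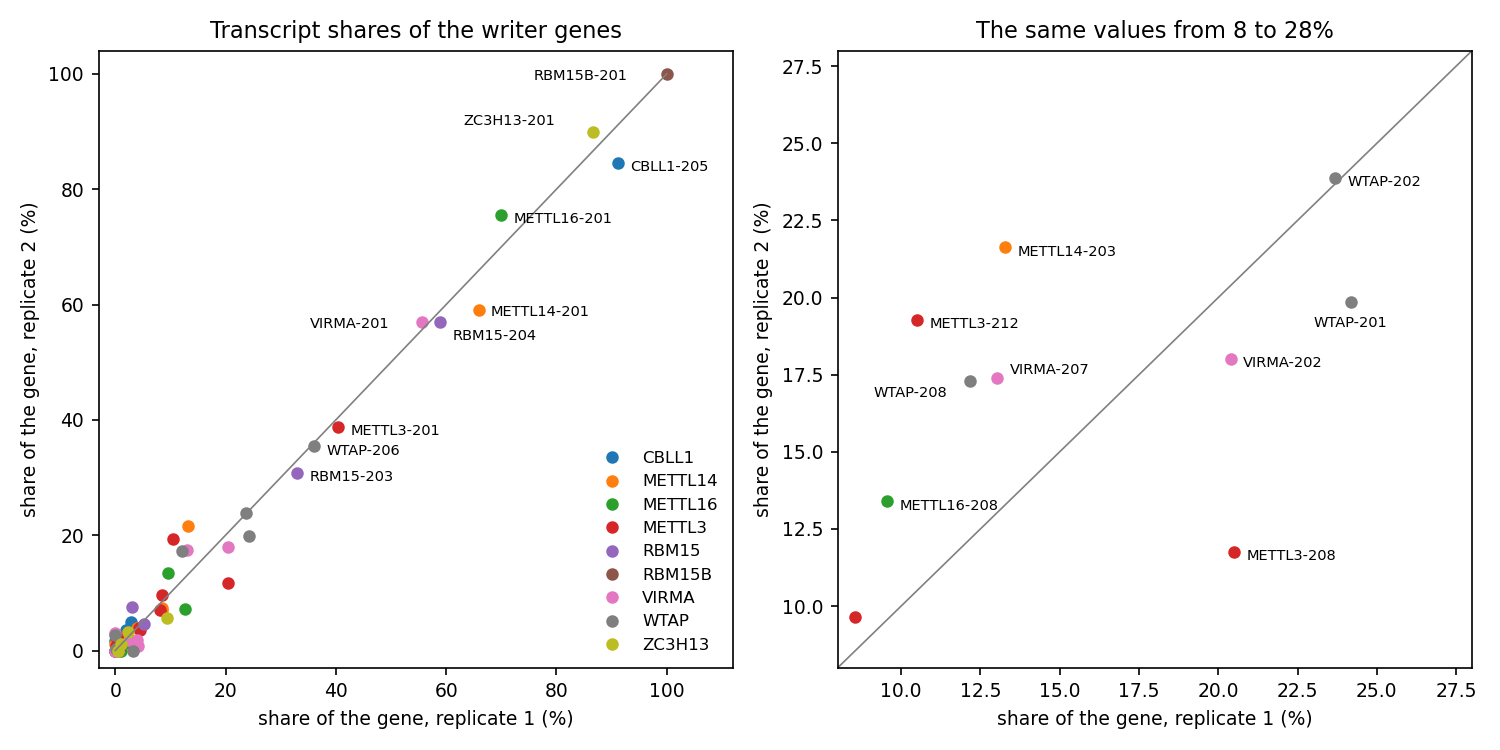
Share of each writer transcript in its gene, replicate 1 on the horizontal and replicate 2 on the vertical axis (percent), coloured by gene, with the line of equal shares. The left panel shows all 66 transcripts and the right panel those from 8 to 28%, where METTL3-208 (20.5 and 11.8%) and METTL3-212 (10.5 and 19.3%) lie on opposite sides of the line.

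How the reads were divided between such transcripts rests on little sequence of their own. Of the 50-base words in METTL3-201, METTL16-201, WTAP-201, RBM15-204 and RBM15-201, 0 were found in that transcript alone among the transcripts of its gene. For METTL14-201 the share was 0.849% and for WTAP-206 it was 1.17%. It was 13.7% for VIRMA-201, 12.7% for RBM15-203, 39.6% for ZC3H13-201 and 50.3% for CBLL1-205. The transcript shares are therefore estimates by the counting model, and their spread over 2 libraries does not cover an error that both share.

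Other genes also share sequence with the writers. DCAF1, on the opposite strand, covers 20.0% of the exonic bases of RBM15B, SOD2 covers 6.81% of those of WTAP, CBLL1-AS1 6.77% of those of CBLL1, TOX4 6.62% of those of METTL3 and CPB2-AS1 2.56% of those of ZC3H13. Whether counting used strand is not given in the sources used here, and without it, reads from these stretches cannot be told apart. Of the 50-base words of WTAP-206, 10.3% also occur in a processed pseudogene, ENSG00000232702, and 0.872% of those of RBM15-201 in another, ENSG00000250080, and both pseudogenes were at 0 in both libraries. The pseudogene WTAPP1 had 11.6 and 10.2 normalised counts, CBLL1P1 had 3.17 and 0, and the CBLL1 paralogue CBLL2 had 0 in both libraries.

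Between the libraries, 7 of the 9 genes were lower in replicate 2 and RBM15 and RBM15B were higher. Of 19110 genes averaging 10 or more normalised counts, 55.2% were lower in replicate 2, and 64.3% of those within the range of the writers' counts. CBLL1 was the only writer gene past a 1.5-fold difference, 1 of 9, at 1.51-fold (log2 -0.59), against 17.4% of all genes and 5.08% of those within the writers' range. This call was lost when counts were scaled to the library total (1.42-fold) or by TMM (1.46-fold). The remaining log2 differences of replicate 2 to replicate 1 ran from -0.36 for METTL14 to 0.18 for RBM15B, against a median of -0.06 over all genes.

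**Figure D5:**
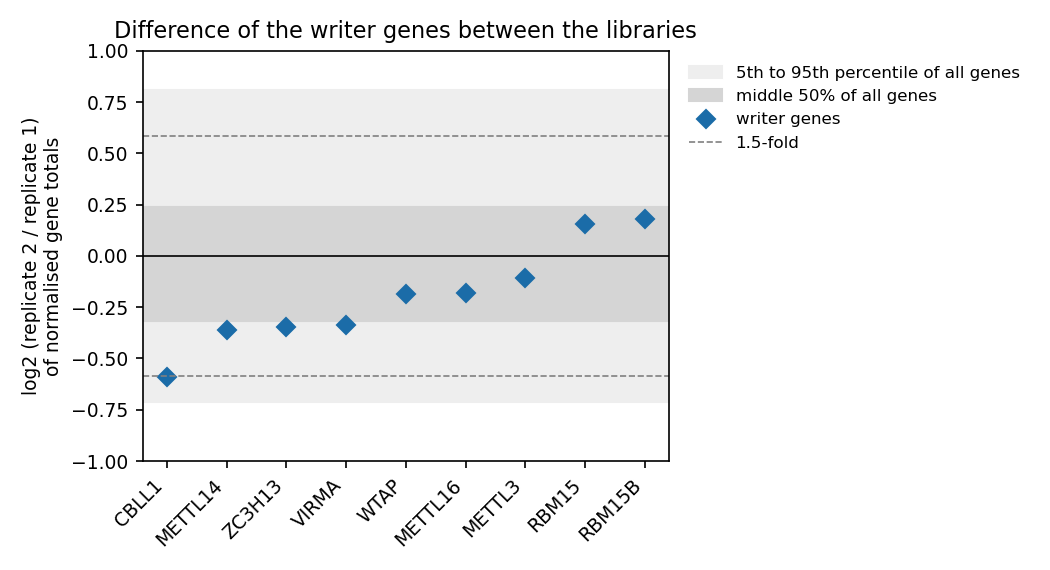
Log2 ratio of replicate 2 to replicate 1 of the normalised gene totals for the 9 writer genes (diamonds), over the 5th to 95th percentiles (light) and the middle 50% (dark) of the 19027 genes averaging 10 or more normalised counts that were above 0 in both libraries. CBLL1 at -0.59 touches the lower dashed line of 1.5-fold, and all 9 genes lie inside the light band.

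Of the 66 transcripts, 51 were above 0 in both libraries, 11 were at 0 in 1 library and 4 at 0 in both. Among the 49 averaging 10 or more normalised counts, 10 (20.4%) differed by more than 2-fold between the libraries, against 30.6% of 67167 transcripts. Besides RBM15-202, WTAP-205 and WTAP-207 these included ZC3H13-202, at 224 and 104.2 normalised counts, and METTL16-207, at 74.6 and 15.7. They also included VIRMA-206, at 87.5 and 13.1, and VIRMA-203, at 0 and 53.4. The highest share of a transcript that was at 0 in the other library was 3.14%.

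The other genes of the m6A pathway, 14 in number, had levels per length from 3.86 for ZCCHC4 to 110.1 for TRMT112, with a median of 25.1 against 17.9 for the writers. The erasers FTO and ALKBH5, which remove methyl groups from adenosine, had levels of 50.04 ± 0.81 and 47.7 ± 2.26, on this scale above each of the writers in both libraries. By normalised counts ALKBH5 was also above each writer, but FTO, at 2524 and 2387, was below RBM15 in both libraries (3322 and 3706). The eraser levels were not recomputed over protein-coding transcripts alone. Among the readers, which bind m6A through a YTH domain, YTHDF2 had 38.1 ± 3.11, YTHDF1 21.2 ± 0.48, YTHDC1 19.0 ± 3.18, YTHDC2 17.1 ± 0.63 and YTHDF3 12.2 ± 1.92. The readers thus covered about the same range as the writers.

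MAT2A, which makes S-adenosylmethionine and whose mRNA is a METTL16 substrate, had a level of 49.4 ± 2.60, and its regulatory subunit MAT2B had 28.9 ± 6.32. Transcripts of MAT2A annotated with a retained intron took 6.81% of its counts in replicate 1 and 7.23% in replicate 2. MAT2A mRNA with a retained intron is known to be held back in the nucleus, but which intron these transcripts keep was not examined. The rRNA methyltransferases METTL5 and ZCCHC4 had levels of 34.1 ± 5.95 and 3.86 ± 0.45, and TRMT112, the partner of METTL5, had 110.1 ± 1.11. PCIF1, which methylates the cap-adjacent adenosine, and METTL4 had 6.61 ± 1.12 and 6.67 ± 2.37, below each of the writers in both libraries. In replicate 2, 11 of the 14 genes were lower, against 55.2% of all genes tested, and 1, PCIF1, was past 1.5-fold, against 17.4%. Among genes within the range of the writers' counts these shares were 64.3% and 5.08%. Not all of the 14 genes lay in that range, and PCIF1, averaging 389 normalised counts, was below it.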

How the data were processed

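RNA depleted of rRNA had been made into TruSeq libraries per the labels. The authors deposited, per transcript and library, an estimated count from RSEM and a normalised signal (EB-Seq-Normalised), in which a library's estimated counts are divided by its size factor (0.945 and 1.08). The submitters' processing notes name FastQC, STAR 2.7.0d, RSEM 1.3.3 and R 3.6.3, and the study names GRCh38. A strand setting is not given in the sources used here. Tables of METTL8 transcripts alone were not used.

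Identifiers without version were matched to GENCODE v44 (202217 of 206696, 173547 with the same version), and the 4479 without a match counted toward library totals and transcript backgrounds only. Of the 66 writer transcripts 10, among them most leading ones, had another version in GENCODE v44, so that lengths, exons and proteins given for them may differ from the models used for counting. Levels per length divide estimated counts by transcript length, with a sum of 1000000 in each library and no effective length correction. Sequences were read from GENCODE v44 and its genome.

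With 1 group, no comparison of conditions was made. The members and lists were chosen with earlier results of these data known. Named were all 9 genes and, of their transcripts, the leader of each gene, those with a mean share of at least 10% and those at 0 in 1 library with at least 5% in the other, which none met. Any other transcript in the text, such as RBM15-202, was picked after seeing its values. Genes and transcripts in fold calls and backgrounds needed a mean of at least 10 normalised counts, except in the percentiles of level per length. Of the cell type markers, 1 is not reported here. The calls past a fold and of leading transcripts were tested on simulated counts drawn with counting (Poisson) error only. That simulation held neither further spread between libraries nor the division of reads between overlapping transcripts, so it does not bear on these errors. Alternatives were other scalings (library total, TMM in edgeR 4.0.16), lengths, filters, folds and transcript sets, and leaving out each library. Python 3.11.15, pandas 2.3.3, numpy 2.4.6, scipy 1.17.1 and Biopython 1.88 were used.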

Additional observations from a re-analysis of the deposited data

Results flagged for a closer look

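The transcripts whose identifiers had no match in GENCODE v44 lie outside every sum per gene, yet their estimated counts summed to 788418 and 859242 in replicates 1 and 2 over 4479 transcripts. They are given here because this signal enters no comparison of the writers. Their part in the writer levels was not tested.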

How the results depend on the processing

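Of 120 alternative values, 72 moved less than the SD of the libraries and 48 moved further. For counts of genes, pairs or transcripts, the limit was 1.5 times in place of the SD. A change of sign was possible only for the log2 ratio of METTL14 to METTL3, which stayed below 0, because levels, shares and counts cannot be negative. The 40 that left out a library stayed within the spread by construction, since a mean of 2 libraries lies between them. The log2 ratio of METTL14 to METTL3 was -1.65 from normalised counts not divided by length, -1.11 with an effective length for a 200-nt fragment (transcripts of 200 nt or less left out, a rule set after seeing the data), -3.39 with the MANE Select length, -1.13 with protein-coding transcripts and -2.74 with complete protein-coding models, which were added after seeing the data, and it ran from -1.57 to -1.42 leaving out a library. The mean of METTL14 was the lowest of the 9 genes in each of these calculations over both libraries except with the effective length, where it was the sixth, but in replicate 1 alone RBM15B was lower (12.4 against 13.2) and in replicate 2 alone CBLL1 was marginally lower (both 11.3). The protein-coding share of the writers was 69.3% by level per length, 72.6% with the same transcript version in the annotation, and 90.0% without METTL3 (added after seeing the data), and it ran from 85.0 to 85.3% leaving out a library. Genes past the fold between the libraries numbered 0 when scaled to the library total, 0 by TMM and 0 at 2-fold, and transcripts past the fold numbered 17 at 1.5-fold and 20 at a minimum mean of 1 normalised count. Pairs of genes differing beyond the spread numbered 22 to 27, but with normalised counts not divided by length 8 of the 24 pairs had reversed means, with protein-coding transcripts 5 and with complete models 3. The order and the leading transcripts need both libraries, so they could not be recomputed without either. No paired analysis was possible because there was 1 group. The depth limits transcripts near 0, and 2 libraries limit every SD.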

Other observations

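Of the other 14 genes of the m6A pathway, TRMT112 and FTO had the lowest shares of counts on protein-coding transcripts, and they were picked out after their values had been seen. TRMT112, the activating partner of METTL5 and of other methyltransferases, had 9.86% of its counts on protein-coding transcripts in replicate 1 and 24.0% in replicate 2, and 3.58% of protein-coding genes averaging 10 or more normalised counts had a lower share. FTO had 55.4% and 52.2%, and 12.5% of these genes had a lower share. METTL3, at 40.6% and 38.8%, lay between them. The next lowest were ZCCHC4 with 57.3% and 67.6%, YTHDF3 with 62.9% and 75.2% and METTL5 with 77.1% and 74.5%, and the other 9 genes had means of 90.3% or more.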
